A study of Homo sapiens with 20 samples.

Results

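Aminoacyl-tRNA synthetases attach amino acids to their tRNAs, and human cells use separate sets of these enzymes for translation in the cytosol and in mitochondria. The 38 genes described here are 19 cytosolic synthetases, 16 mitochondrial synthetases with symbols ending in 2, and 3 scaffold proteins of the multisynthetase complex (AIMP1, AIMP2 and EEF1E1). They were chosen by name from the 57500 genes listed in each library, and all 38 passed the filter on low counts in each comparison. RNA was sequenced from NTERT cells, a line of human keratinocytes immortalized with telomerase, in 4 groups of 5 replicates: namely WT and GCN2KO cells, each left unwounded or subjected to HDW. HDW is high-density wounding, in which many scratches are drawn through a cell sheet, and RNA was collected 6 h later. WT cells carried a control guide RNA. GCN2KO cells were an edited pool rather than a clone, made with CRISPR-Cas9 against the gene of the eIF2 kinase GCN2 and used at early passage. Each genotype is therefore 1 cell population, and loss of GCN2 cannot be told apart from other differences between these populations. In bulk RNA, fewer cells of a type and less RNA per cell cannot be told apart either.

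GCN2 binds uncharged tRNA and phosphorylates eIF2α, which lowers general translation while favouring translation of the transcription factor ATF4. Genes of amino acid supply and of cytosolic tRNA charging are known ATF4 targets, reached through composite C/EBP-ATF response elements. All mitochondrial synthetases are encoded in the nucleus. GARS1 and KARS1 each encode the enzyme for both compartments, and mitochondrial glutaminyl-tRNA is made by an indirect route, so that QARS1 has no mitochondrial partner.

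The core of the C/EBP-ATF element, TGATGNAA, was searched on both strands of RefSeq promoter windows (GRCh38.p14, 250 bases before to 50 after a transcript start). It was present in 7 of the 16 cytosolic synthetase genes with a window (43.8%), in 1 of 14 mitochondrial genes (7.14%) and in 0 of 3 scaffold genes. Of all genes in the promoter table, 4.46% held it (1217 of 27305). The table had no window for LARS1, VARS1, YARS1, AARS2 or VARS2. The 8 matches are shown with 30 bases each, because the counts above rest on them. Capitals mark the core, which reads TTGCATCA or TTTCATCA where it lies on the opposite strand.
AARS1: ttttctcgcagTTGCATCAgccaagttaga
CARS1: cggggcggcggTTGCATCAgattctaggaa
GARS1: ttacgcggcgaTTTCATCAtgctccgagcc
IARS1: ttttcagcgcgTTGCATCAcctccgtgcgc
MARS1: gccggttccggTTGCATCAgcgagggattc
NARS1: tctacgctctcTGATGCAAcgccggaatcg
TARS1: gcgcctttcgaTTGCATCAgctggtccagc
YARS2: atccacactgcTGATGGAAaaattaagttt

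These windows lie at chr16:70289675-70289704 (AARS1, minus strand), chr11:3057407-3057436 (CARS1, minus), chr7:30594834-30594863 (GARS1, plus), chr9:92293692-92293721 (IARS1, minus), chr12:57488053-57488082 (MARS1, plus), chr18:57621804-57621833 (NARS1, minus), chr5:33440956-33440985 (TARS1, plus) and chr12:32756076-32756105 (YARS2, minus), each printed in the direction of its gene. The core lay within 33 bases of the RefSeq start used for the window in CARS1, GARS1, IARS1, MARS1, NARS1 and TARS1. In AARS1 it lay 187 bases before that start and in YARS2 197 bases before. Annotations differ for AARS1: in GENCODE release 44 the gene begins at chr16:70289707, so the printed match lies inside it, near its beginning. A match is a run of letters and is not shown to be bound in these cells.

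The libraries held 14083504 to 34611570 counts on genes, and the 38 genes took 0.388% to 0.759% of them. To compare libraries, counts were divided by their TMM-scaled library size, set over all 20 libraries, and are called normalized read counts. EIF2AK4, the gene of GCN2, had 4152 to 4555 normalized read counts in WT unwounded libraries and 806 to 962 in GCN2KO unwounded libraries, a log2 difference of -2.28 (SE 0.065, adjusted p by edgeR = 4.29e-13). After HDW it was again lower in GCN2KO cells by 2.27 on the log2 scale (fold 0.208), so that the labels and the targeted mRNA match. The keratinocyte markers KRT5, KRT14 and TP63 were high in all 20 libraries, with lowest values of 225773, 32686 and 7681 normalized read counts. The involucrin mRNA IVL, a marker of differentiating keratinocytes, was higher in GCN2KO than in WT unwounded cells (log2 fold change 1.83, SE 0.131), and its part in the values below was not tested. Of the 6 keratinocyte markers 1 was higher and 4 were lower in GCN2KO unwounded cells, and of 3 tested suprabasal markers 1 was higher and 1 lower, where 33.4% of all genes tested were called higher and 33.1% lower. Among markers of other cells, the fibroblast genes COL1A2, COL3A1 and PDGFRA stayed at or below 8.4 normalized read counts, the melanocyte genes TYR and DCT were at 0 and at or below 4.4, and the immune genes PTPRC and CD3E were at or below 2. COL1A1 (599.9 to 968), DCN (12.6 to 79.6), MLANA (18.4 to 55.2), PMEL (32.0 to 72.8), CD14 (368 to 1813) and CD74 (122 to 236) were detected.

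In unwounded WT cells the cytosolic enzymes were expressed at higher levels than the mitochondrial ones. Per kb of the canonical transcript, the median level was 1707 normalized read counts for the 19 cytosolic genes, from 192 for FARSB to 5374 for SARS1. The 16 mitochondrial genes had a median of 230.5 per kb, from 74.9 for MARS2 to 1390 for IARS2, and the scaffold genes ranged from 197 for EEF1E1 to 641.5 for AIMP1. The ranges of the 2 classes overlap. Added together, the cytosolic genes took 0.355% ± 0.0325 (SD, n = 5) of library counts in WT unwounded cells, 0.558% ± 0.0337 (SD, n = 5) in WT HDW, 0.673% ± 0.0151 (SD, n = 5) in GCN2KO unwounded and 0.640% ± 0.0171 (SD, n = 5) in GCN2KO HDW cells. All WT unwounded libraries lay below all others on this measure. The mitochondrial genes took 0.0606% to 0.0620% in WT unwounded, 0.0592% to 0.0609% in WT HDW, 0.0505% to 0.0532% in GCN2KO unwounded and 0.0512% to 0.0538% in GCN2KO HDW libraries. Here the genotypes separated and the wounding groups overlapped within each genotype. Cytosolic counts per mitochondrial count were 5.79 ± 0.523 (SD, n = 5), 9.28 ± 0.498 (SD, n = 5), 12.99 ± 0.270 (SD, n = 5) and 12.19 ± 0.107 (SD, n = 5) in the same order of groups.

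**Figure D1:**
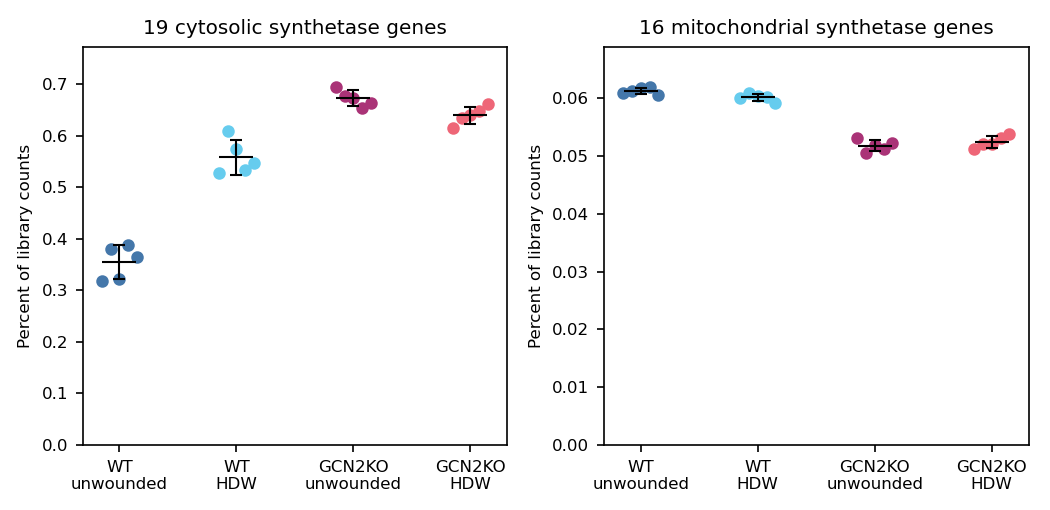
Percent of library counts on the 19 cytosolic (left) and 16 mitochondrial (right) synthetase genes, with 1 point per library and bars for mean ± SD of 5 libraries in each of the 4 groups; the scales of the panels differ. Cytosolic shares run from 0.3187% to 0.3881% in WT unwounded and from 0.6545% to 0.6948% in GCN2KO unwounded libraries, while mitochondrial shares are lower in both GCN2KO groups.

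GCN2KO and WT cells were first compared without wounding, which asks how synthetase mRNAs differ between the genotypes at baseline. Of the 19 cytosolic synthetases, 15 were higher and 2 lower in GCN2KO cells at an edgeR adjusted p of at most 0.05, against 33.4% of all 15348 genes tested called higher and 33.1% called lower. Of the 16 mitochondrial synthetases, 1 was higher and 10 were lower. With the added requirement of a change of 1 or more on the log2 scale in either direction, the study's rule for a DE gene, 9 cytosolic genes were higher (8.21% of all genes) and 1 was lower (8.22% of all genes), and no mitochondrial gene qualified. The median log2 fold change was 0.89 over the cytosolic, -0.28 over the mitochondrial and 0.00 over all genes tested. All 3 scaffold genes were higher.

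GARS1, the glycyl-tRNA synthetase of both compartments, showed the largest difference among the 38 genes. Its normalized read counts were 3979, 5070, 3934, 4998 and 4641 in WT unwounded replicates 1 to 5 and 15369, 15200, 14200, 14416 and 13821 in GCN2KO unwounded replicates 1 to 5. The groups did not overlap, and the log2 fold change was 1.69 (SE 0.082, edgeR adjusted p = 7.35e-11). TARS1, which charges threonyl-tRNA, had 6358, 7538, 6495, 7544 and 7496 normalized read counts in WT and 20257, 20253, 23024, 19562 and 21047 in GCN2KO cells. Its log2 fold change was 1.56 (SE 0.074, edgeR adjusted p = 6.59e-11), again with no overlap. LARS1, the leucyl-tRNA synthetase, had 4094 to 4916 in WT and 11048 to 12849 normalized read counts in GCN2KO libraries (log2 fold change 1.35, SE 0.070, edgeR adjusted p = 1.48e-10). CARS1, for cysteine, had 2331 to 3082 in WT and 6319 to 6912 normalized read counts in GCN2KO libraries (log2 fold change 1.31, SE 0.080, edgeR adjusted p = 8.58e-10). GARS1 and CARS1 carry the core printed above, as does TARS1, LARS1 had no promoter window to search, and WARS1 and EPRS1, described next, had a window without the core.

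The remaining DE genes among the cytosolic enzymes were WARS1, AARS1, MARS1, EPRS1 and IARS1. WARS1, the tryptophanyl-tRNA synthetase, had 5557, 9110, 5658, 9699 and 7759 normalized read counts in WT and 19515 to 22832 in GCN2KO libraries, a log2 fold change of 1.47 (SE 0.135). AARS1, for alanine, had 6198, 10082, 6291, 10697 and 8660 in WT and 17495 to 20443 in GCN2KO libraries (log2 fold change 1.20, SE 0.133). In both genes WT replicates 1 and 3 were the lowest. The same pair of libraries was lowest in 12 of the 19 cytosolic but in 3 of the 16 mitochondrial genes, and replicate 1 is also the smallest library. Without both of them 14 cytosolic genes were called higher and 2 lower. MARS1 and WARS1 share 13.3% and 10.6% of their exonic bases with other genes, mostly on the opposite strand. The methionyl-tRNA synthetase MARS1 had a log2 fold change of 1.15 (SE 0.10). EPRS1, which charges both glutamyl- and prolyl-tRNA, had 1.10 (SE 0.075), and IARS1, for isoleucine, had 1.00 (SE 0.096), just inside the DE rule. SARS1, for serine, lay just outside it at 0.89 (SE 0.080).

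Not all cytosolic enzymes followed. QARS1, the glutaminyl-tRNA synthetase, was the cytosolic gene with the lowest ratio: it had 7975, 7452, 8538, 7318 and 7843 normalized read counts in WT and 4404, 3625, 3454, 3315 and 3410 in GCN2KO unwounded cells. The groups did not overlap, and the log2 fold change was -1.10 (SE 0.082, edgeR adjusted p = 7.42e-09). VARS1, for valine, was lower as well, with 3148 to 3307 in WT and 1997 to 2443 normalized read counts in GCN2KO libraries (log2 fold change -0.54, SE 0.069). FARSA, the alpha subunit of phenylalanyl-tRNA synthetase, and KARS1, the lysyl-tRNA synthetase of both compartments, were not called (log2 fold changes -0.06 and 0.07). FARSB, the beta subunit of the same enzyme as FARSA, was called higher at 0.23 (SE 0.070), but without WT replicates 1 and 3 its edgeR adjusted p was 0.0558.

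Among the mitochondrial enzymes the lower values were smaller in size. CARS2, the mitochondrial cysteinyl-tRNA synthetase, had 2083, 1900, 2072, 1756 and 1931 normalized read counts in WT unwounded and 1210, 1019, 1292, 1060 and 1174 in GCN2KO unwounded cells, a log2 difference of -0.75 (SE 0.076, adjusted p by edgeR = 2.61e-07). LARS2, for leucine, had 896 to 1025 in WT and 590 to 762 in GCN2KO libraries (log2 fold change -0.54, SE 0.076, edgeR adjusted p = 1.12e-05). Neither gene overlapped between the groups, so for cysteine and leucine, among others, the cytosolic and the mitochondrial mRNA differed in opposite directions. SARS2, for serine, was lower too (log2 fold change -0.65, SE 0.109), but 48.2% of its exonic bases are shared with a gene on the same strand, so its counts are uncertain. RARS2, the mitochondrial arginyl-tRNA synthetase, was the exception: its normalized read counts were 1103, 1115, 1167, 1154 and 1164 in WT and 2002, 1701, 2549, 1786 and 2255 in GCN2KO unwounded cells. Its log2 fold change was 0.86 (SE 0.094, edgeR adjusted p = 6.77e-07).

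The scaffold proteins AIMP1, AIMP2 and EEF1E1 hold the multisynthetase complex together with EPRS1, IARS1, KARS1, LARS1, MARS1, QARS1 and RARS1. AIMP1 had 1683 to 1894 normalized read counts in WT and 2052 to 2784 in GCN2KO unwounded libraries (log2 fold change 0.43, SE 0.088). AIMP2 had 436 to 498 and 682 to 833 (log2 fold change 0.68, SE 0.077), and EEF1E1 189 to 227 and 289 to 404 (log2 fold change 0.74, SE 0.108). AIMP2 shares 29.1% of its exonic bases with EIF2AK1 on the opposite strand, EEF1E1 shares 18.8% with a read-through gene, and the sources used here do not say whether counting used strand. The 7 synthetases of the complex had a median log2 fold change of 1.00 and the 12 cytosolic synthetases outside it 0.88. Membership of the complex thus did not separate high from low values: the complex holds both LARS1 and QARS1.

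**Figure D2:**
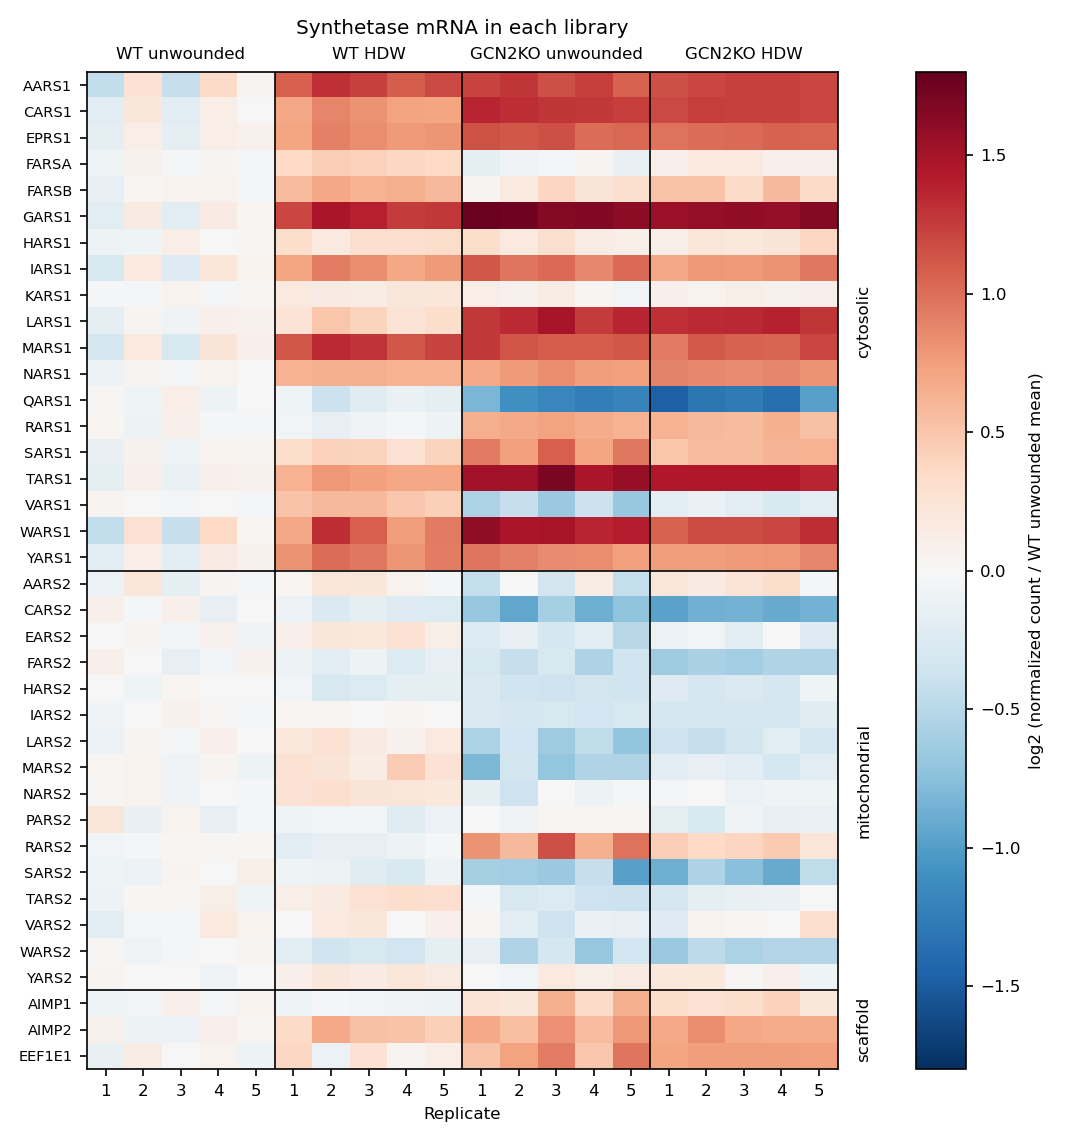
Normalized read counts of the 38 genes in each of the 20 libraries, as log2 of the ratio to the gene's mean in WT unwounded cells (red higher, blue lower), with columns for replicates 1 to 5 of each group and rows for cytosolic, mitochondrial and scaffold genes. Most cytosolic rows are red in the WT HDW and both GCN2KO groups, QARS1 is blue in both GCN2KO groups, and RARS2 is the mitochondrial row that is red in GCN2KO cells.

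The GCN2KO population also differed from WT along chromosome 5. The median log2 fold change over the 695 genes tested on chromosome 5 was 0.35 in unwounded cells, while on the other chromosomes that carry members it lay between -0.08 and 0.08. After HDW the chromosome 5 median was 0.36. HARS1, LARS1, RARS1, TARS1 and HARS2 lie there. Without them 11 of 15 cytosolic genes were called higher and 2 lower in unwounded cells, and 9 of 15 mitochondrial genes were called lower. LARS1 and TARS1 exceeded the median of the genes within 10 Mb on either side by 1.20 and 1.21 on the log2 scale, RARS1 by 0.25, HARS1 was at that level (difference -0.03), and HARS2 lay below it (difference -0.58). The part of the chromosome 5 difference in the values of the 5 genes was not tested. On chromosome 1, the genes within 10 Mb of EPRS1 and IARS2 had medians of 0.235 and 0.244 in unwounded cells. EPRS1 exceeded its local median by 0.86 in unwounded cells and by 0.045 after HDW. IARS2 lay below its local median in both states (differences -0.535 and -0.484). The part of these local medians was not tested either.

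After HDW the genotypes were compared again, which asks whether synthetase mRNAs differ in wounded cells. The cytosolic class no longer leaned one way: 8 of 19 genes were higher and 7 lower in GCN2KO HDW than in WT HDW cells, against 35.9% and 35.8% of all 15855 genes tested. Of the 8 higher genes, 3 lie on chromosome 5, and without the members on it the count was 5 of 15. The mitochondrial class had 1 gene higher and 10 lower. No cytosolic gene was a higher DE gene, against 7.1% of all genes, and 1 (QARS1) was a lower DE gene, against 7.83%. LARS1 lay just under the fold limit and passed it without WT HDW replicate 2 (1.03) or GCN2KO HDW replicate 5 (1.002), and with library size alone (1.02). The median log2 fold change was 0.02 over the cytosolic, -0.30 over the mitochondrial and 0.00 over all genes.

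LARS1 had 5464, 6538, 6074, 5490 and 5743 normalized read counts in WT HDW and 11441, 11665, 11827, 12013 and 11254 in GCN2KO HDW cells, a log2 difference of 0.99 (SE 0.051, adjusted p by edgeR = 1.41e-09). TARS1 had 10981 to 12177 in WT HDW and 18277 to 19247 in GCN2KO HDW libraries (log2 fold change 0.71, SE 0.039). RARS1, for arginine, had 2868 to 3097 and 4598 to 4972 normalized read counts (log2 fold change 0.67, SE 0.037). All 3 of these genes lie on chromosome 5, and their differences from neighbouring genes after HDW were 0.71, 0.55 and 0.39. QARS1 again had separate groups, with 7409, 5973, 6757, 7187 and 6920 normalized read counts in WT HDW and 2823, 3162, 3237, 3066 and 3980 in GCN2KO HDW cells (log2 fold change -1.07, SE 0.082, edgeR adjusted p = 4.84e-08). VARS1 had 4300 to 4815 and 2651 to 2950 (log2 fold change -0.71, SE 0.042). For AARS1, WARS1, IARS1 and HARS1 no difference was called after HDW. WARS1 was near the threshold (log2 fold change 0.21, SE 0.098, edgeR adjusted p = 0.0658). It was called higher with library size alone, with no filter on low counts and with replicate numbers as a block. The AARS1 values overlapped, at 17596 to 20933 in WT HDW and 18789 to 19640 in GCN2KO HDW libraries (log2 fold change 0.02, SE 0.049).

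The mitochondrial values after HDW were again mostly lower in GCN2KO cells. CARS2 had 1623 to 1810 normalized read counts in WT HDW and 1004 to 1083 in GCN2KO HDW libraries (log2 fold change -0.69, SE 0.042, edgeR adjusted p = 6.98e-09). LARS2 had 1015 to 1166 and 728 to 851 (log2 fold change -0.50, SE 0.051). IARS2, the mitochondrial isoleucyl-tRNA synthetase and the most abundant of its class per kb, had 4877 to 5033 and 3950 to 4203 (log2 fold change -0.31, SE 0.034). RARS2 was the 1 mitochondrial gene called higher, with 988 to 1129 and 1331 to 1580 normalized read counts (log2 fold change 0.50, SE 0.053). In these 4 genes the groups did not overlap. The scaffold genes were all higher, AIMP1 by 0.37 (SE 0.042), AIMP2 by 0.21 (SE 0.063) and EEF1E1 by 0.60 (SE 0.081) on the log2 scale.

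**Figure D3:**
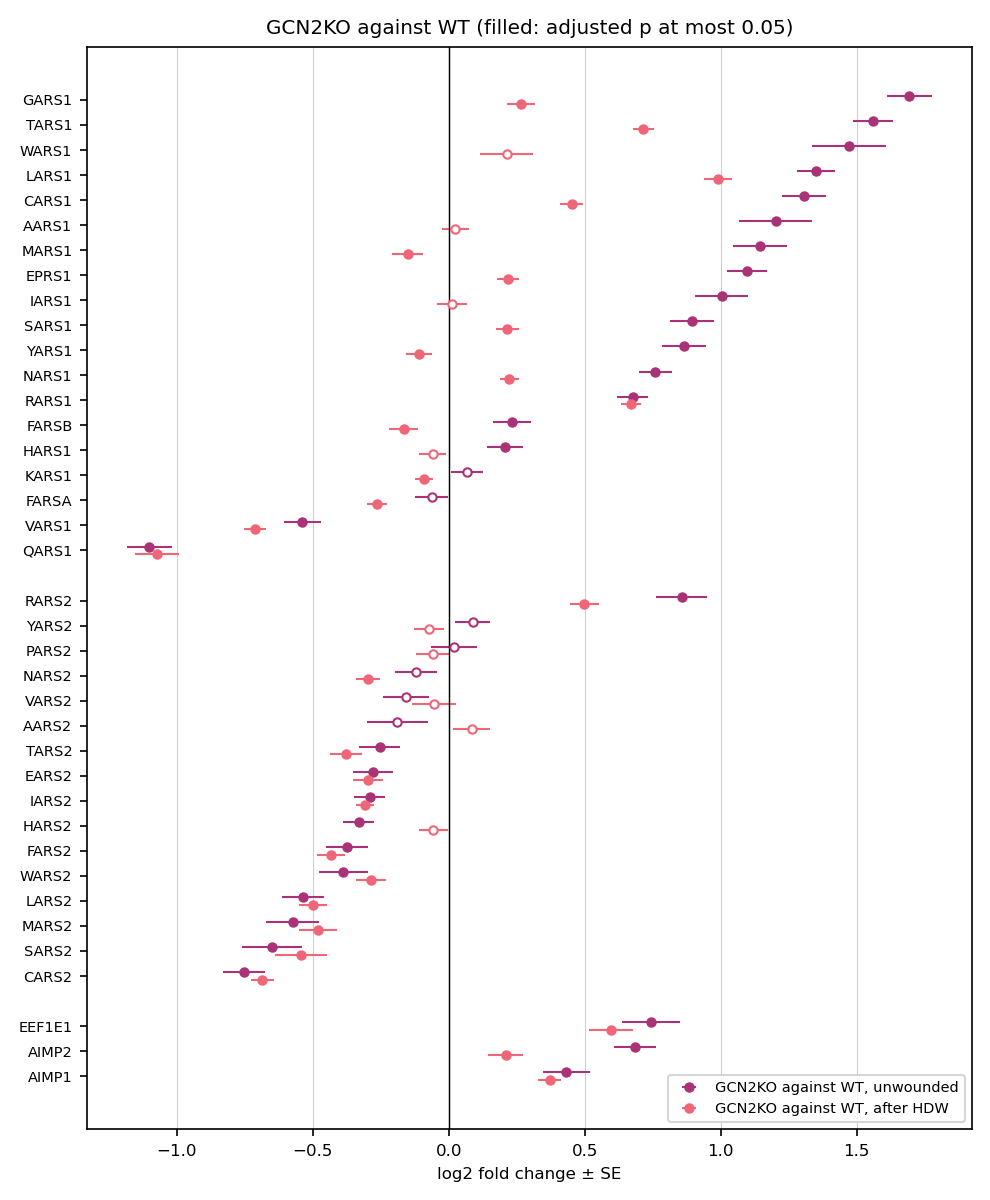
Log2 fold change of GCN2KO against WT with its SE for each of the 38 genes, in unwounded cells (dark) and after HDW (light), ordered within each class by the unwounded value; filled points had an edgeR adjusted p of at most 0.05. For most cytosolic genes the unwounded point lies far to the right of the HDW point, while QARS1 and most mitochondrial genes have the 2 points close together on the left.

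In WT cells HDW was compared with the unwounded state, which asks how wounding changes these mRNAs when GCN2 is present. This comparison uses the same WT unwounded libraries as the unwounded genotype comparison. HDW raised 17 of 19 cytosolic synthetase mRNAs and lowered 1, against 26.1% and 25.2% of all 15348 genes tested. Of the mitochondrial genes, 6 rose and 5 fell, shares nearer to the background than those of the cytosolic class. The 3 cytosolic genes that met the DE rule were all higher, against 2.62% of all genes. The median log2 fold change was 0.63 over the cytosolic, 0.05 over the mitochondrial and -0.00 over all genes.

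GARS1 rose to 10447, 12504, 11931, 10872 and 10878 normalized read counts in WT HDW replicates 1 to 5, from 3934 to 5070 in unwounded libraries (log2 fold change 1.32, SE 0.072, edgeR adjusted p = 1.57e-09). MARS1 rose from 2949 to 4295 in unwounded libraries to 7918 to 9240 after HDW (log2 fold change 1.22, SE 0.092). AARS1 rose by 1.18 (SE 0.128) on the log2 scale. These are the 3 DE genes, and all carry the promoter core, while WARS1 (0.97), EPRS1 (0.80) and FARSB (0.62) rose with a window that lacks it. NARS1, which charges asparaginyl-tRNA, had the smallest adjusted p: its values were 6270 to 6985 before and 10252 to 10522 after HDW (log2 fold change 0.63, SE 0.033, edgeR adjusted p = 1.08e-09). FARSB rose with an SE of 0.042, and VARS1, lower in GCN2KO cells, rose by 0.52 (SE 0.037). RARS1 was not called (log2 fold change -0.08, SE 0.038), and QARS1 was called lower at -0.20 (SE 0.055) with overlapping groups, a call that was lost without WT unwounded replicates 1 and 3 (edgeR adjusted p = 0.0644).

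The largest mitochondrial change after HDW in WT cells was smaller than the cytosolic median. MARS2, the mitochondrial methionyl-tRNA synthetase, had 213 to 237 normalized read counts before and 248 to 311 after HDW (log2 fold change 0.27, SE 0.073). WARS2, for tryptophan, fell from 614 to 665 to values of 500 to 572 (log2 fold change -0.27, SE 0.049, edgeR adjusted p = 0.000253). NARS2 and TARS2, for asparagine and threonine, rose by 0.24 (SE 0.044) and 0.23 (SE 0.049), and HARS2, for histidine, fell by 0.18 (SE 0.043) on the log2 scale. CARS2 fell by 0.20 (SE 0.048) and FARS2, for phenylalanine, by 0.15 (SE 0.053). By these calls the cytosolic mRNA rose while the mitochondrial mRNA fell for tryptophan, histidine, cysteine and phenylalanine. The groups overlapped for HARS2, CARS2 and FARS2. The FARS2 call was lost with no filter (edgeR adjusted p = 0.0736) and with all 20 libraries in one fit (edgeR adjusted p = 0.0532). It was also lost in 3 fits that left out 1 library, so the phenylalanine case is uncertain. Of the scaffold genes AIMP2 rose, from 436 to 498 to values of 598 to 754 (log2 fold change 0.50, SE 0.065). AIMP1 (log2 fold change -0.07, SE 0.037) and EEF1E1 (log2 fold change 0.15, SE 0.093) were not called.

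All 12 cytosolic synthetases outside the multisynthetase complex rose after HDW in WT cells (median 0.67 on the log2 scale). Of the 7 inside the complex 5 rose, with a median of 0.34 and a range from -0.20 for QARS1 to 1.22 for MARS1. No test of the difference between these lists was made.

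In GCN2KO cells the same wounding comparison gave few calls. HDW raised 3 and lowered 2 of the 19 cytosolic genes, against 11.9% and 10.8% of all 15791 genes tested, and raised 2 and lowered 1 of the 16 mitochondrial genes. No scaffold gene and no DE gene was among them, where 0.475% of all genes were higher and 0.196% lower DE genes. The median log2 fold change was -0.06 over the cytosolic and 0.05 over the mitochondrial genes. Fitted with the replicate numbers as a block, 1 cytosolic gene was called higher and 1 lower. VARS1 was the clearest of the 5, with 1997 to 2443 normalized read counts before and 2651 to 2950 after HDW (log2 fold change 0.36, SE 0.072, edgeR adjusted p = 0.00464). FARSA and FARSB, the paired subunits of phenylalanyl-tRNA synthetase, were called higher at 0.20 (SE 0.060) and 0.24 (SE 0.074). Both calls were lost with the block and with no filter on low counts (edgeR adjusted p = 0.104 and 0.0583 with no filter). They were also lost in 4 and 6 of the fits that left out 1 library, so both are uncertain. SARS1 and WARS1 were called lower at -0.30 (SE 0.075) and -0.26 (SE 0.069). GARS1, AARS1 and MARS1 were not called: GARS1 had 13821 to 15369 normalized read counts before and 13159 to 14172 after HDW, with overlap.

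Among mitochondrial genes in GCN2KO cells RARS2 fell after HDW, from 2002, 1701, 2549, 1786 and 2255 to 1555, 1465, 1490, 1580 and 1331 normalized read counts (log2 fold change -0.46, SE 0.098, edgeR adjusted p = 0.00619). The groups did not overlap. MARS2 rose from 130 to 181 to values of 182 to 204 (log2 fold change 0.38, SE 0.098). AARS2, for alanine, was called higher at 0.39 (SE 0.113), a call lost in 7 of 10 fits that left out 1 library. LARS2 was not called (log2 fold change 0.23, SE 0.081, edgeR adjusted p = 0.0541). The scaffold genes had log2 fold changes of -0.11 for AIMP1, 0.04 for AIMP2 and 0.01 for EEF1E1.

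**Figure D4:**
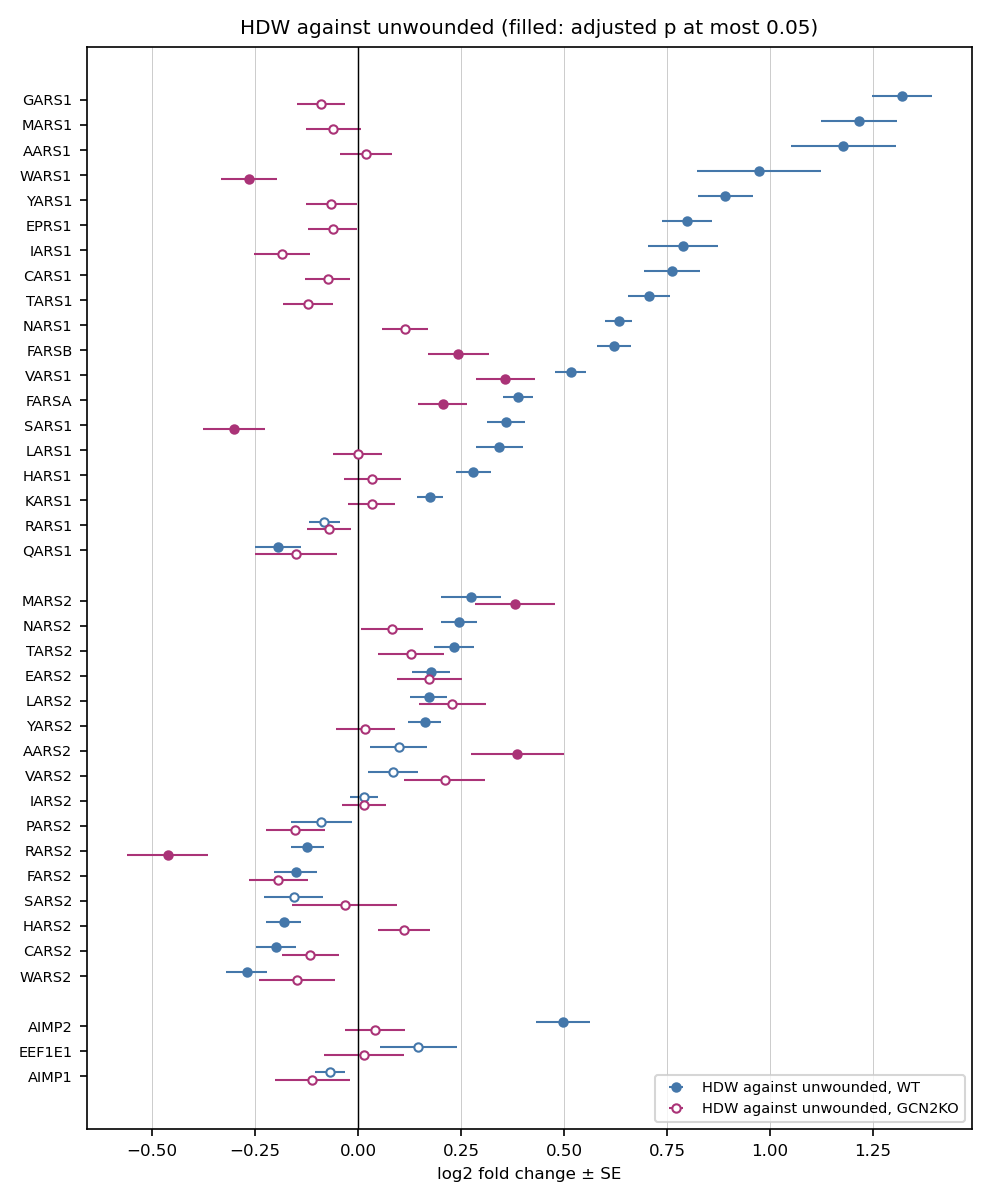
Log2 fold change of HDW against unwounded with its SE for each of the 38 genes in WT (blue) and GCN2KO cells (purple), ordered within each class by the WT value; filled points had an edgeR adjusted p of at most 0.05. In WT cells 17 of 19 cytosolic points are filled and to the right of 0, while in GCN2KO cells most cytosolic points are open and near 0; mitochondrial points of both genotypes lie close to 0.

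The interaction term over all 20 libraries, the ones used above, tested whether WT and GCN2KO cells changed unequally with HDW. A negative value means that the change with HDW was lower in GCN2KO than in WT cells. The interaction was called negative for 15 of 19 cytosolic genes and positive for 0, against 12.5% and 11.2% of all 16536 genes tested. For the mitochondrial genes it was negative for 1 and positive for 1 of 16. For 4 cytosolic genes the value also had a size of 1 or more, against 2.15% of all genes. The median was -0.68 over the cytosolic and 0.02 over the mitochondrial genes, against -0.01 over all genes. Leaving out WT unwounded replicates 1 and 3 together gave 14 cytosolic genes with a negative interaction. The counts of 0 cytosolic genes with a positive interaction and of 0 scaffold genes called with HDW in GCN2KO cells were also 0 at an unadjusted p under 0.05 and by DESeq2.

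The interaction was -1.42 (SE 0.096, edgeR adjusted p = 3.32e-10) for GARS1, -1.29 (SE 0.122, edgeR adjusted p = 6.83e-08) for MARS1, -1.25 (SE 0.180) for WARS1 and -1.17 (SE 0.153) for AARS1. IARS1 followed at -0.99 (SE 0.117), YARS1, the tyrosyl-tRNA synthetase, at -0.97 (SE 0.095), EPRS1 at -0.88 (SE 0.086), CARS1 at -0.85 (SE 0.091) and TARS1 at -0.84 (SE 0.082). The 4 cytosolic genes without a called interaction were KARS1, QARS1, RARS1 and VARS1. QARS1 and RARS1 had interaction values of 0.03 (SE 0.118) and -0.00 (SE 0.063), beside the genotype differences given above for both states. HARS2 had the positive mitochondrial interaction at 0.28 (SE 0.075, edgeR adjusted p = 0.00842) and RARS2 the negative one at -0.36 (SE 0.114, edgeR adjusted p = 0.0256). NARS2 and AARS2 were next at -0.17 (SE 0.084) and 0.28 (SE 0.139), neither called. Of the scaffold genes AIMP2 had an interaction of -0.47 (SE 0.099), while AIMP1 (-0.06, SE 0.103) and EEF1E1 (-0.15, SE 0.139) were not called.

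The ratio of a cytosolic gene's count to that of its mitochondrial partner in the same library does not depend on how libraries are scaled. It was formed for 17 pairs, with 0.5 added to each count, and compared by two-sided exact permutation tests of 5 against 5 libraries. The smallest p that these allow is 0.00794, and p-values were not adjusted over the pairs. EPRS1 and FARS2 each enter 2 pairs. In unwounded cells the GCN2KO ratio exceeded the WT ratio for 15 pairs and lay below it for 1 at an exact p of at most 0.05, with a median difference of 1.31 on the log2 scale. After HDW it was higher for 13 pairs and lower for 1, with a median difference of 0.32. HDW raised the ratio in WT cells for 16 pairs and lowered it for 0, with a median of 0.63. In GCN2KO cells HDW raised it for 3 pairs and lowered it for 6, with a median of -0.08. Ratios of other gene pairs were not formed, so no background share stands beside these counts of pairs. Among single genes, edgeR called 33.4% higher and 33.1% lower in GCN2KO than in WT unwounded cells.

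The cysteine pair showed the largest genotype difference. The log2 ratio of CARS1 to CARS2 was 0.44 in WT unwounded and 2.52 in GCN2KO unwounded cells, a difference of 2.07 (exact permutation p = 0.00794). The tryptophan pair WARS1 and WARS2 and the leucine pair LARS1 and LARS2 followed at 1.91 and 1.89, each with no overlap between groups. The valine pair went the other way: the log2 ratio of VARS1 to VARS2 was 1.97 in WT and 1.58 in GCN2KO unwounded cells, a difference of -0.39 (exact permutation p = 0.00794), although 63.0% of the exonic bases of VARS2 are shared with a gene on the same strand. For arginine, where both RARS1 and RARS2 were higher in GCN2KO cells, the difference was -0.16 (exact permutation p = 0.214). With HDW in WT cells the ratio rose most in the tryptophan pair, by 1.27, and the alanine pair, by 1.12, and for arginine the difference was 0.04 (exact permutation p = 0.429).

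**Figure D5:**
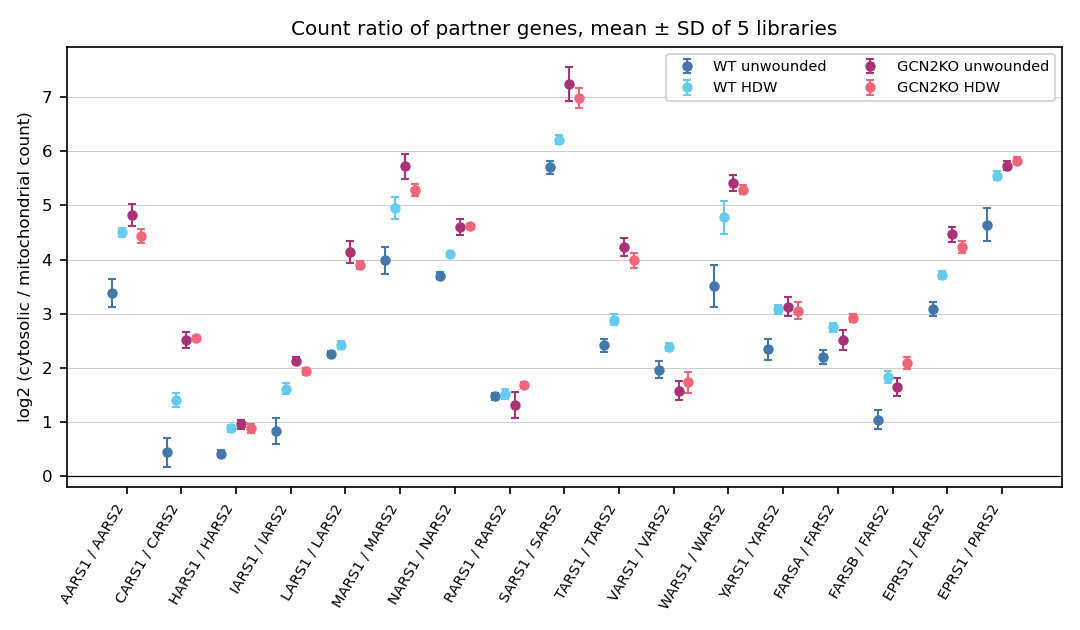
Log2 ratio of cytosolic to mitochondrial counts for 17 partner pairs, as mean ± SD of 5 libraries in each of the 4 groups. WT unwounded is the lowest group in most pairs, and the valine pair VARS1 and VARS2 and the arginine pair RARS1 and RARS2 are the ones in which GCN2KO unwounded is lowest.

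Other genes of tRNA charging and of translation gave a frame for these values. Of 15 tested partners of tRNA charging, among them tRNA editing and processing enzymes and the mitochondrial amidotransferase subunits, 5 were higher and 1 lower in GCN2KO unwounded cells. Of all genes tested there, 33.4% were called higher and 33.1% lower, so that the share of partners called higher is near the background. DTD1, which removes D-amino acids from tRNA, was the 1 DE gene among the partners (log2 fold change 1.14, SE 0.082, edgeR adjusted p = 5.32e-09). Of all genes, 8.21% were higher DE genes in that comparison. HDW in WT cells raised 4 and lowered 1 of the 15, and 26.1% of all genes were called higher there, so that the share raised is near the background. Of 5 cytosolic elongation factors, 1 was higher and 4 lower in GCN2KO unwounded cells, with a median of -0.53. Of 10 mitochondrial translation factors 7 were higher and 2 lower in the same comparison, with a median of 0.31. Both lists stand beside 33.4% of all genes called higher and 33.1% called lower. The elongation factor EEF1G had the largest SE of the 5 in that comparison (log2 fold change -0.75, SE 0.28). Its groups overlapped, and its value is uncertain.

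Of 15 amino acid response genes, 12 were higher and 1 lower in GCN2KO unwounded cells, against 33.4% and 33.1% of all genes, and their median was 1.09 on the log2 scale. The pseudokinase gene TRIB3 was at 3.69 (SE 0.186), the transcription factor gene ATF3 at 3.24 (SE 0.153), the glutathione-degrading enzyme gene CHAC1 at 2.92 (SE 0.165) and DDIT3, which encodes CHOP, at 2.85 (SE 0.171). The 1 lower gene was ATF5, at -1.10 (SE 0.079). After HDW, 6 of the list were higher and 6 lower in GCN2KO than in WT cells, with a median of 0.00. Of all genes, 35.9% were called higher and 35.8% lower there. HDW raised 11 of the 15 and lowered 2 in WT cells, against 26.1% and 25.2% of all genes. In GCN2KO cells it raised 0 (also 0 at an unadjusted p under 0.05 and by DESeq2) and lowered 4 by edgeR, against 11.9% and 10.8%. ATF4 mRNA was higher by 0.55 (SE 0.077) in GCN2KO unwounded cells and rose by 0.34 (SE 0.045) with HDW in WT cells. The interaction was negative for 12 of the 15 and positive for 1, against 12.5% and 11.2%. For asparagine synthetase, ASNS, it was -2.43 (SE 0.174), and for TRIB3 -2.79 (SE 0.246), both further from 0 than the -1.42 of GARS1. The promoter core was present in 3 of 13 of these genes with a window (23.1%).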

How the data were processed

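Per the labels, the study's methods and the submitters' processing notes, the authors trimmed reads with Trimmomatic, aligned them to GRCh38 with STAR and counted them on exons with featureCounts. They deposited raw counts per gene, without normalization. The annotation release and strand setting are not given in the sources used here. Genes were matched to GENCODE release 44 by Ensembl ID.

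Counts were tested by edgeR's quasi-likelihood test (edgeR 4.0.16, R 4.3.3) after TMM scaling and filterByExpr with a minimum count of 10 and a minimum total of 15, with Benjamini-Hochberg adjustment over all genes tested. Each comparison used the 10 libraries of its groups, and the interaction used all 20. The SE was taken from the log2 fold change and its F statistic, as size over root F. The steps were tested on simulated data. Python 3.11.15 and matplotlib 3.10.9 made tables and figures.

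The members and lists were chosen with earlier results of these data known. Values are given for the 4 cytosolic and 4 mitochondrial members with the smallest adjusted p in each comparison, all DE members, the scaffold genes, and up to 4 DE genes of each other list. Further members and list genes that complete a short count, and the members on chromosome 5, were named after their values were seen.

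The study's methods define n in its legends as biological replicates, and legends showing read counts of these libraries give n = 5. Neither these nor the labels say whether the 5 of a group were separate cultures. If they were not, p-values measure the spread between these samples, which may be technical. Replicate numbers did not pair the samples: same-numbered libraries of compared groups had correlations of deviations from -0.281 to 0.106, and 1 of 20 pairs exceeded 0.1. Alternatives included DESeq2 1.42.0, DESeq2 size factors in edgeR, scaling by library size alone, testing unfiltered genes or those averaging at least 50 counts, all 20 libraries in one fit, a replicate block, each library left out, and for ratios a pseudocount of 5. Leaving out 2 WT libraries and the chromosome 5 members was added after the data were seen.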

Additional observations from a re-analysis of the deposited data

Results flagged for a closer look

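Of 152 groups of 5 libraries, 9 held a library far from the other 4 by Dixon's criterion, where chance gives about 1 in 20. The lone high values were MARS1 at 8806 and QARS1 at 4404 normalized read counts in GCN2KO unwounded cells, and YARS1 at 7632, IARS2 at 4203 and AIMP2 at 841.5 in GCN2KO HDW cells. The lone low values were HARS1 at 1984 in WT HDW cells, PARS2 at 280.5 in GCN2KO unwounded cells, and TARS1 at 18277 and EEF1E1 at 336.9 in GCN2KO HDW cells.

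The change with HDW differed between genotypes, by the edgeR interaction term, in 18 of the 38 genes. Beside GARS1 (-1.42), MARS1 (-1.29), WARS1 (-1.25) and AARS1 (-1.17) these were IARS1 at -0.99, YARS1 at -0.97, EPRS1 at -0.88, CARS1 at -0.85, TARS1 at -0.84 and SARS1 at -0.68 on the log2 scale. Smaller negative values were found for NARS1 at -0.53, AIMP2 at -0.47, FARSB at -0.39, LARS1 at -0.36, RARS2 at -0.36, HARS1 at -0.26 and FARSA at -0.20. The FARSA call was lost in 12 of the 20 fits that left out 1 library, and the FARSA and HARS1 calls were both lost with library size alone and with no filter. HARS2 at 0.28 was the positive one.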

How the results depend on the processing

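The cytosolic counts for GCN2KO against WT unwounded, the rise with HDW in WT cells and the negative interaction stayed within 1.5 times of the reported value under every alternative run, and no called gene reversed. Single-gene calls that crossed the threshold had reported log2 values of at most 0.386 in size (AARS2, HDW in GCN2KO cells). The cause was not tested for any of the following.

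For GCN2KO against WT after HDW, lower cytosolic genes numbered 4 with library size alone and 4 with all 20 libraries in one fit, in place of 7, and higher ones 5 without the chromosome 5 members, in place of 8. For HDW in WT cells, lower cytosolic genes numbered 2 with library size alone, 0 with all 20 libraries in one fit and 0 without WT unwounded replicates 1 and 3, in place of 1. Lower mitochondrial genes numbered 3 with no filter and 3 in the fit of all 20, in place of 5, and 1 scaffold gene was lower with library size alone. EIF2AK4 was then also called in that comparison, at -0.096. For HDW in GCN2KO cells, higher cytosolic genes numbered 1 with no filter and lower ones 1 in the fit of all 20. Lower mitochondrial genes numbered 2 by DESeq2, with a mean of at least 50 counts and in the fit of all 20. For the interaction, 0 mitochondrial genes were positive with no filter or without chromosome 5 members, and 0 were negative with library size alone or without WT unwounded replicates 1 and 3, in place of 1 each.

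With the replicate block, which the numbers do not justify as a pairing, HDW in GCN2KO cells gave 1 higher and 1 lower cytosolic gene in place of 3 and 2. The block changed 7 single-gene calls and no other count beyond 1.5 times.

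With each library left out in turn, the lower cytosolic genes ranged from 1 to 2 for HDW in WT cells. In GCN2KO cells HDW gave 1 to 3 higher cytosolic, 1 to 3 higher mitochondrial and 1 to 2 lower mitochondrial genes. Higher cytosolic genes numbered 1 without GCN2KO unwounded replicate 1 or 5 or GCN2KO HDW replicate 2. The positive mitochondrial interactions ranged from 1 to 2 (2 without GCN2KO unwounded replicate 4) and the negative ones from 0 to 2 (0 without WT HDW replicate 5 or GCN2KO unwounded replicate 5). Pairs with a lower cytosolic to mitochondrial ratio after HDW in GCN2KO cells ranged from 3 to 5, where 4 against 5 libraries cannot give an exact p under 0.0159.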
